A study of Mus musculus with 9 samples.

Results

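Chemokine and chemoattractant receptors are cell-surface receptors that steer leukocytes along gradients of chemokines, complement fragments and bacterial or host peptides. The genes described are Ccr1, Ccr2, Ccrl2, Cxcr4, Cx3cr1, C5ar1, C3ar1, Fpr1 and Fpr2, which were taken by name as 9 of the 54059 genes in the deposited table. All 9 were found in it by their Ensembl identifiers, and 7 passed a filter of a mean of at least 1 FPKM, reads per length of transcript scaled to library depth, over the 9 libraries. Ccr2 and Cx3cr1 fell below the filter and are given by their levels and reads.

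RNA was sequenced from peritoneal macrophages of mice aged 8 weeks, in 3 groups of 3 libraries, all treated in culture for 4 h with imiquimod (IMQ), an agonist of the receptor TLR7. The WT group came from wild-type mice and received 10 µg/ml IMQ. M-Shp2-/- mice carry floxed Shp2 (Ptpn11) alleles, which encode the phosphatase SHP2, and a Cre recombinase driven by Lyz2, a gene active in macrophages and also in neutrophils. The SHP099 group was wild-type cells given 10 µM SHP099, an allosteric SHP2 inhibitor, for 2 h before 10 µg/ml IMQ. The IMQ concentration for the M-Shp2-/- libraries is not stated. The cells had been drawn into the peritoneum with starch broth and kept by adherence, so all groups share this elicitation. None of the 9 libraries is without IMQ, so a response to IMQ itself cannot be read from these data. The labels do not say that libraries are separate animals, and the p values below therefore measure the spread among these libraries. Depth recovered from the table ran from 39836352 to 50979928 reads per library.

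Nearly all of these receptors couple to inhibitory G proteins, whose freed subunits start phosphoinositide signalling, calcium release and movement. Ccr1 and Ccr2 encode receptors for CC chemokines, Cxcr4 the receptor for CXCL12, and Cx3cr1 the receptor for fractalkine. C5ar1 and C3ar1 bind fragments of complement, and Fpr1 and Fpr2 bind formyl peptides. Ccrl2 is an atypical receptor that binds chemerin and presents it to other cells without the usual signalling. On inflammatory macrophages, these receptors are known for recruitment and for priming to complement and bacterial products.

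The labels were checked first. Ptpn11 had 43.3 ± 3.00 FPKM in WT, 18.4 ± 0.591 in M-Shp2-/- and 41.6 ± 1.77 in SHP099 libraries (SD, n = 3 per group). It fell in M-Shp2-/- macrophages, with a log2 fold change of -1.19 (SE 0.10, limma adjusted p 0.0168). Leaving out WT replicate 1 or 2, or M-Shp2-/- replicate 1 or 2, raised that adjusted p to as much as 0.196. Fitting the replicate numbers as a block raised it to 0.157. The log2 fold change stayed between -1.24 and -1.15. Of 7 macrophage markers, all passed the filter. Their summed level was 9416, 12033 and 9693 FPKM in WT, 6889.97, 6879 and 7192 FPKM in M-Shp2-/-, and 11009, 12071 and 12559 FPKM in SHP099 libraries. Lyz2, the gene that drives the Cre, was the most abundant of them, at a mean of 7886 FPKM, and the lower M-Shp2-/- sums rest on it. Without Lyz2 the sums were 1976, 1805 and 1743 FPKM in WT, 2027, 2136 and 1785 FPKM in M-Shp2-/-, and 1661, 1791 and 1844 FPKM in SHP099 libraries, and all groups overlapped. With SHP099 against WT, 3 of the 7 estimates were higher and 4 lower, and their median was -0.14 on the log2 scale. Csf1r alone was called, higher by 1.38 (adjusted p 0.0222), but not under median-of-ratios scaling (adjusted p 0.0575), with no filter (0.0979), or without SHP099 replicate 1 (0.0760), 2 (0.116) or 3 (0.0774). Of 6 markers of resident peritoneal macrophages, 3 passed, and their sum stayed between 4.18 and 10.6 FPKM.

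M-Shp2-/- replicate 3 stood apart before any comparison. The correlation of log2 values across tested genes was 0.988 to 0.991 among SHP099 libraries and 0.974 to 0.984 among WT libraries, but reached down to 0.954 among M-Shp2-/- libraries. M-Shp2-/- replicate 3 correlated at 0.967 with replicate 1 and 0.954 with replicate 2 of its group, and at 0.984 with SHP099 replicate 1. WT replicates 1 and 3 were also most like a library of another group. WT replicate 1 correlated at 0.988 with M-Shp2-/- replicate 2 and at 0.984 or less with WT libraries. WT replicate 3 correlated at 0.978 with SHP099 replicate 3 and at 0.976 or less with WT libraries. Genes are not independent replicates, so these correlations are descriptions. Receptor results that rest on M-Shp2-/- replicate 3 are given with and without it.

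Markers of other cells also differed among libraries. The summed level of 6 fibroblast and mesothelium markers, led by Col1a1, was 56.5, 272 and 36.2 FPKM in WT, 122, 45.9 and 548 FPKM in M-Shp2-/-, and 334, 126 and 95.0 FPKM in SHP099 libraries. The sum of 4 B cell markers, led by Ighm, was 177 FPKM in M-Shp2-/- replicate 3 and 7.02 to 45.8 FPKM in the other libraries. Both sums were highest in M-Shp2-/- replicate 3, and their part in the receptor values was not tested. The B cell sum there rests on Ighm, since without Ighm it was 1.66 FPKM in that library, 5.06 and 2.43 FPKM in M-Shp2-/- replicates 1 and 2, and 0.310 to 1.34 FPKM in the other libraries. The fibroblast and mesothelium sum without Col1a1 was still highest in M-Shp2-/- replicate 3, at 343 FPKM.

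The sum of 6 monocyte markers, led by Hp, was 22.8, 87.5 and 63.7 FPKM in WT, 80.7, 35.3 and 110.3 FPKM in M-Shp2-/-, and 152, 186 and 186 FPKM in SHP099 libraries. Every SHP099 library was above every WT library in that sum, which rests on Hp, and its part in the receptor values was not tested. Without Hp the sum was 7.08, 6.46 and 21.5 FPKM in WT and 3.66, 3.31 and 8.79 FPKM in SHP099 libraries, and these groups overlapped. The sum of 11 neutrophil markers, led by Csf3r and then S100a8, was 124, 169 and 159 FPKM in WT, 105, 105 and 179 FPKM in M-Shp2-/-, and 112, 114.5 and 152 FPKM in SHP099 libraries. It was highest in M-Shp2-/- replicate 3, with and without Csf3r, and its part in the receptor values was not tested. Of the 11, 4 passed the filter, and Ly6g and Mpo had at most 3 reads in each library. The sum of 6 T cell markers, led by Cd3g, was 6.39 FPKM in WT replicate 3 and 0.417 to 6.11 FPKM elsewhere. The sum of 4 NK cell markers, led by Gzma, was 2.37 FPKM in WT replicate 3 and 0 to 0.501 FPKM elsewhere. WT replicate 3 thus had the highest sum in both lists and in the monocyte list without Hp, and the part of these markers in the receptor values was not tested.

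Low sums of 3 further lists were lower in every SHP099 library than in every WT library. The sum of 5 mast cell markers, led by Kit, was 6.10, 4.76 and 6.01 FPKM in WT, 2.76, 3.19 and 1.603 FPKM in M-Shp2-/-, and 0.675, 0.564 and 0.970 FPKM in SHP099 libraries. The sum of 6 dendritic cell markers, led by Ccr7, was 6.28, 4.11 and 3.78 FPKM in WT, 7.63, 5.25 and 3.67 FPKM in M-Shp2-/-, and 1.498, 1.03 and 1.35 FPKM in SHP099 libraries. These sums move with the lower Ccr1 and Ccr7 described below, and their part in those results was not tested. Ccr7 is itself in the dendritic cell sum. Without Ccr7 that sum was 1.24, 1.28 and 0.809 FPKM in WT and 0.784, 0.725 and 0.619 FPKM in SHP099 libraries. The sum of 5 eosinophil markers, led by Siglecf and with Ear1 at 0, was 0.395, 0.383 and 0.930 FPKM in WT, 0.727, 0.537 and 0.280 FPKM in M-Shp2-/-, and 0.0368, 0.0205 and 0.0186 FPKM in SHP099 libraries. Ccr7, Ccr3, Xcr1 and Cxcr2 are also on the list of other receptors below, and Camp on the list of ligands.

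Levels are compared between genes in FPKM, which is per length. In WT macrophages, Ccrl2 came first, and its lowest library lay above the highest of every other receptor described. It took 66.1% of the summed FPKM of the 9 genes in WT, 61.7% in M-Shp2-/- and 58.9% in SHP099 libraries. The shares of single libraries overlapped, at 58.75% to 70.3% in WT, 59.2% to 70.2% in M-Shp2-/- and 54.2% to 64.65% in SHP099 libraries. C5ar1, Fpr2 and Fpr1 followed, each overlapping the next, then Cxcr4, C3ar1 and Ccr1, which also overlapped in WT. Ccr2 and Cx3cr1 came last and apart from each other. With SHP099 the order of the next 3 was Fpr2, Fpr1 and C5ar1, again overlapping, and Cxcr4, C3ar1 and Ccr1 were then apart from one another.

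**Figure D1:**
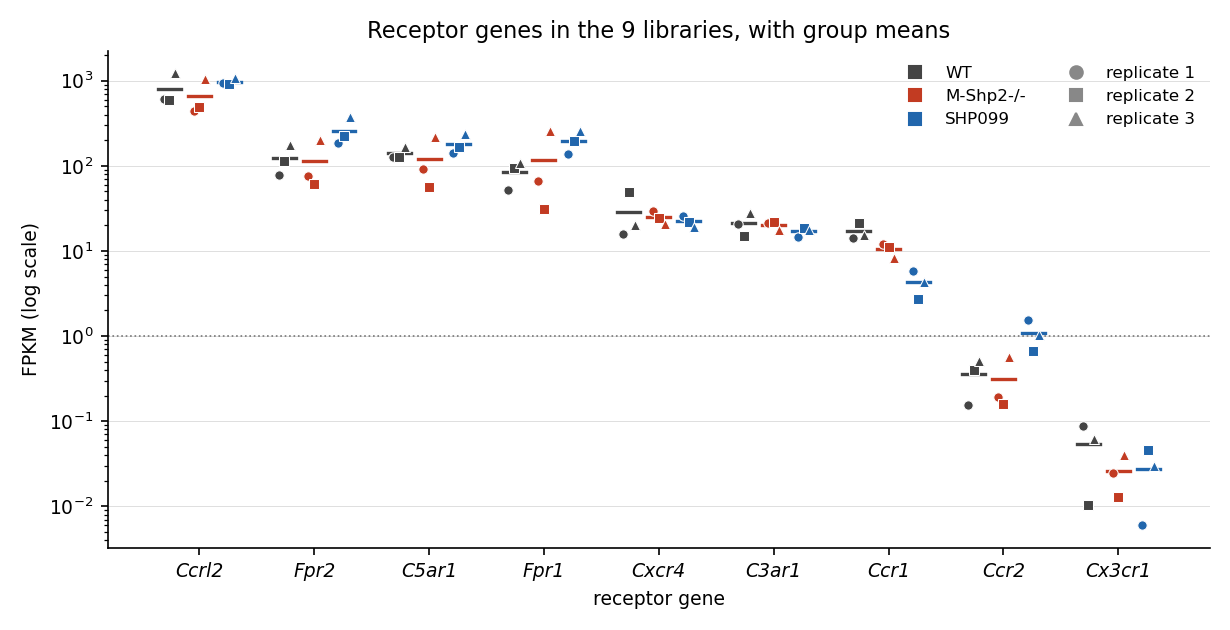
FPKM on a log axis for each receptor gene in each of the 9 libraries, with a bar at each group's mean and a dotted line at the filter of 1 FPKM. Ccrl2 lies at 444 FPKM or above in every library, Ccr1 falls from 14.3 to 21.6 FPKM in WT to 2.76 to 5.79 FPKM with SHP099, and Cx3cr1 lies below 0.1 FPKM throughout.

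Ccr1 (ENSMUSG00000025804, chr9:123962124-123968692 in GRCm38) encodes a receptor for CCL3, CCL5, CCL6 and CCL9. Its level was 14.3, 21.6 and 15.2 FPKM in WT, 12.0, 11.2 and 8.28 FPKM in M-Shp2-/-, and 5.79, 2.76 and 4.36 FPKM in SHP099 libraries. The 3 groups did not overlap, with WT highest and SHP099 lowest. Group means were 17.0 ± 3.96, 10.5 ± 1.97 and 4.30 ± 1.52 FPKM (SD, n = 3), so that M-Shp2-/- stood at 61.7% and SHP099 at 25.3% of the WT mean.

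Ccrl2 (ENSMUSG00000043953, chr9:111054486-111057519) had 609.8, 598 and 1219 FPKM in WT, 444, 486 and 1049 FPKM in M-Shp2-/-, and 937, 921 and 1069 FPKM in SHP099 libraries. Replicate 3 was high in WT and in M-Shp2-/-, and all groups overlapped. Means were 809 ± 355, 660 ± 338 and 976 ± 81.6 FPKM (SD, n = 3).

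The promoter sequences of Ccr1 and Ccrl2 are shown because their windows held a match to the same motif, while with SHP099 Ccr1 was called lower and Ccrl2 was not called. Ccrl2 has 3 starts in RefSeq, and the window shown is the 1 of 3 that held the match, which the other 2 lacked. The sequences are the 150 bases before the start (RefSeq, GRCm38.p6, minus strand), at chr9:123968693-123968842 and chr9:111057519-111057668. Capitals mark a match to the κB consensus, the sequence bound by NF-κB.
Ccr1: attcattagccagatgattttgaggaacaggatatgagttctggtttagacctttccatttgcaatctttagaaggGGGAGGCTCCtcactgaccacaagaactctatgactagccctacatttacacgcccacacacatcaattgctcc
Ccrl2: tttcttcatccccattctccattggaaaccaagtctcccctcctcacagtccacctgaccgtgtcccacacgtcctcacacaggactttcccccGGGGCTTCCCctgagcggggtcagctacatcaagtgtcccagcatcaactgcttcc
The match lies at bases -74 to -65 in Ccr1 and at -56 to -47 in Ccrl2. Such a match occurs on either strand in 7.25% of 32851 promoter windows of 250 bases.

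Promoter windows were found for all 9 genes, 11 in all since Ccrl2 has 3, and 9 motifs were searched in them on both strands after the expression values were known. The AP-1 motif TGANTCA occurred in C3ar1 alone, against 6.75% of all windows. The PU.1 core GAGGAA occurred in Ccr1 and Fpr2 (23.3% of all windows), and the STAT motif TTCNNNGAA in Fpr2 (7.02%). TATAAA was found in C3ar1, Cxcr4, Fpr1 and Fpr2 (12.4%), and the GC box GGGCGG in C3ar1, Ccrl2 and Cxcr4 (32.7%). The C/EBP motif TTGCNNAA was in none (9.56%). The interferon-stimulated response element, GAAA at both ends with any 2 bases between, was also in none (2.98%). Less its last base, as GAAANNGAA, it was in C5ar1 and Ccr2 (7.13%). A match is a description of letters and not a binding site.

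C5ar1 (ENSMUSG00000049130, chr7:16246743-16259540) encodes the receptor of the complement fragment C5a. It had 129, 127 and 167 FPKM in WT, 91.9, 56.8 and 216 FPKM in M-Shp2-/-, and 142, 164 and 234 FPKM in SHP099 libraries. M-Shp2-/- replicate 3 was above every WT library while the other 2 of its group were below every WT library, and all groups overlapped. The mean was 141 ± 22.6 FPKM in WT, 121 ± 83.4 in M-Shp2-/- and 180.1 ± 47.9 in SHP099 libraries (SD, n = 3).

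Fpr1 (ENSMUSG00000045551, chr17:17876471-17883940) encodes a receptor for bacterial and mitochondrial formyl peptides. Its level was 52.1, 93.6 and 107 FPKM in WT, 66.5, 31.5 and 256 FPKM in M-Shp2-/-, and 137, 197 and 254 FPKM in SHP099 libraries. Every SHP099 library was above every WT library, and M-Shp2-/- replicate 3 had the highest value of all 9 while replicate 2 had the lowest. Means were 84.4 ± 28.8 FPKM in WT, 118 ± 121 in M-Shp2-/- and 196 ± 58.5 in SHP099 libraries (SD, n = 3).

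Fpr2 (ENSMUSG00000052270, chr17:17887824-17893952) encodes a receptor for formyl peptides, annexin A1 and serum amyloid A. Its level was 78.1, 113 and 176 FPKM in WT, 76.6, 60.9 and 203 FPKM in M-Shp2-/-, and 185, 222 and 372 FPKM in SHP099 libraries. SHP099 and WT libraries did not overlap, and M-Shp2-/- replicate 3 was again far above the other 2 of its group. Means were 123 ± 49.7 FPKM in WT, 114 ± 78.0 in M-Shp2-/- and 259.7 ± 99.1 in SHP099 libraries (SD, n = 3). Of the 50-base stretches in the exons of Fpr2, 31.5% occur elsewhere in annotated exons, mostly in the pseudogene Gm5966, so reads from there cannot all be placed. The exons of Fpr2 and Fpr3 overlap over 48 bases on 1 strand. Fpr1 and Fpr2 lie 3.9 kb apart, and the exons of Fpr1 share 0.08% of such stretches.

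Cxcr4 (ENSMUSG00000045382, chr1:128588199-128592293), the CXCL12 receptor, had 15.7, 49.1 and 20.2 FPKM in WT, 29.6, 24.3 and 20.8 FPKM in M-Shp2-/-, and 26.0, 22.2 and 19.4 FPKM in SHP099 libraries. WT held both the highest and the lowest library, and all groups overlapped. Its means were 28.3 ± 18.2, 24.9 ± 4.41 and 22.5 ± 3.34 FPKM (SD, n = 3). C3ar1 (ENSMUSG00000040552, chr6:122847138-122856161), the C3a receptor, ran from 15.0 to 28.2 FPKM in WT, 17.8 to 21.7 FPKM in M-Shp2-/- and 14.6 to 18.7 FPKM in SHP099 libraries. Its groups overlapped as well, with means of 21.4 ± 6.64, 20.3 ± 2.14 and 17.0 ± 2.15 FPKM (SD, n = 3).

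Ccr2 (ENSMUSG00000049103, chr9:124101950-124113557), the receptor for CCL2 and CCL7, had 0.155, 0.400 and 0.506 FPKM in WT, 0.192, 0.161 and 0.575 FPKM in M-Shp2-/-, and 1.56, 0.671 and 1.03 FPKM in SHP099 libraries. The reads behind these values were 25, 74 and 78 in WT, 30, 24 and 95 in M-Shp2-/-, and 248, 97 and 163 with SHP099. All SHP099 libraries were above all others, and none of them reached 2 FPKM. Every SHP099 library was above every WT library for 27.9% of all genes tested, which do not include Ccr2. In a fit with no filter, the log2 fold change of SHP099 against WT was 0.61 (95% confidence interval 0.10 to 1.12, limma adjusted p 0.241).

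Cx3cr1 (ENSMUSG00000052336, chr9:119901616-120069879) had 1 to 15 reads in a library, and in 3 of the 9 libraries no more than 3 reads, the floor used here. Its FPKM was 0.00599 to 0.0889, and a difference between groups was not detectable at this depth.

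Loss of Shp2 in myeloid cells was examined by comparing M-Shp2-/- with WT macrophages. With limma, 10 of 11450 genes passed the looser rule, an adjusted p no higher than 0.05 (0.0873%). The stricter rule, with the study's thresholds of 0.005 and a change of 1 or more on the log2 scale either way, called 1 gene (0.00873%). None of the 7 tested receptor genes was called by either rule, and voom on recovered reads, the other method run, called 0. An unadjusted p under 0.05 was found for 1 of the 7, beside 1204 of all 11450 genes. Ccr1 was the 1 receptor gene with that unadjusted p, and the 1 whose groups did not overlap. Its log2 fold change was -0.64 (95% confidence interval -1.12 to -0.16, adjusted p 0.455). Among all genes tested, 3.07% had every M-Shp2-/- library below every WT library.

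The other 6 tested receptor genes overlapped between M-Shp2-/- and WT. The log2 fold change was -0.42 for C5ar1 (95% confidence interval -1.49 to 0.65), -0.32 for Ccrl2 (-1.30 to 0.65), -0.24 for Fpr2 (-1.41 to 0.93) and 0.02 for Fpr1 (-1.71 to 1.74). For Cxcr4 and C3ar1 it was -0.02 and -0.03. Thus 6 of 7 estimates were lower and 1 higher, the one of Fpr1, which was -0.14 under median-of-ratios scaling. With WT replicate 3 left out, 4 were higher and 3 lower, and with M-Shp2-/- replicate 3 left out, 2 were higher and 5 lower. These intervals leave room for differences of more than 1 on the log2 scale in C5ar1, Ccrl2, Fpr1 and Fpr2.

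Without M-Shp2-/- replicate 3, the log2 fold change against WT was -0.94 for C5ar1, -0.80 for Fpr1, -0.76 for Fpr2, -0.72 for Ccrl2 and -0.49 for Ccr1. Their adjusted p values were then 0.223, 0.299, 0.263, 0.266 and 0.244. None of these 5 was called with 2 libraries against 3, although the estimates of C5ar1, Fpr1, Fpr2 and Ccrl2 moved down by leaving out that library.

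SHP2 inhibition was examined by comparing SHP099 with WT macrophages, and the same WT libraries serve both comparisons. By the looser rule, 797 of the 11450 genes were called (6.96%), 521 higher and 276 lower (2.41% lower), and 19 by the stricter rule (0.166%). The median log2 fold change of all genes was 0.13 in this comparison and 0.15 in M-Shp2-/- against WT. Median-of-ratios scaling brought both medians to 0.01 or nearer 0 and gave 200 higher and 375 lower genes for SHP099. Of the 7 tested receptor genes, 1 was called, Ccr1, at the looser rule, and voom on recovered reads also called 1. An unadjusted p under 0.05 was found for 3 of the 7, beside 3061 of all 11450 genes. By the stricter rule 0 of the 7 were called, since the adjusted p of Ccr1 was above 0.005.

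Ccr1 fell by 1.79 on the log2 scale with SHP099 (95% confidence interval -2.37 to -1.21, SE 0.25, adjusted p 0.0151). Its level was lower in 3 of 3 SHP099 libraries than in each WT library, as for 6.77% of all genes tested. Fewer cells of a type and less RNA per cell cannot be told apart in bulk RNA. The call depended on single libraries, since the adjusted p was 0.0590 without SHP099 replicate 2 and 0.0606 without SHP099 replicate 3. It was 0.0767 with no filter on low FPKM.

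The formyl peptide receptor genes were higher with SHP099 in every library, without being called. The log2 fold change was 1.23 for Fpr1 (95% confidence interval 0.49 to 1.96, adjusted p 0.0601) and 1.09 for Fpr2 (0.28 to 1.90, adjusted p 0.101). Non-overlap in that direction held for 27.9% of all genes tested, so 2 of 7 receptor genes is near the background. Both genes were called without WT replicate 3, the WT library highest in each. The log2 fold changes were then 1.43 (adjusted p 0.0458) and 1.39 (adjusted p 0.0447).

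Ccrl2 also turned on WT replicate 3. Its log2 fold change was 0.35 with all libraries (95% confidence interval -0.28 to 0.98, adjusted p 0.454) and 0.69 without that library (adjusted p 0.0143). Without WT replicate 3, 4 of the 7 genes were called, 3 higher and 1 lower, where 7.05% of all genes were called higher and 4.07% lower. Ccr1 was among them, at -1.85 (adjusted p 0.0177). For the other 3 tested genes, the log2 fold change with all libraries was 0.33 for C5ar1, -0.27 for C3ar1 and -0.16 for Cxcr4, with adjusted p values of 0.331, 0.473 and 0.829.

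**Figure D2:**
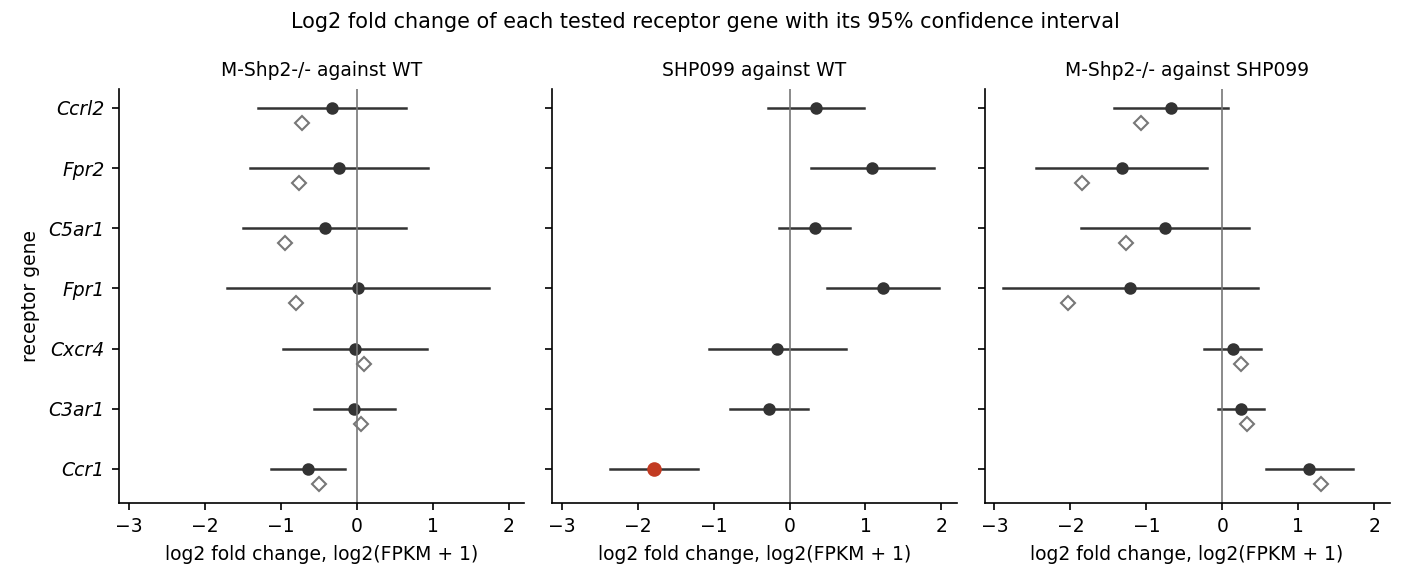
Log2 fold change of log2(FPKM + 1) for the 7 tested receptor genes in each comparison, with 95% confidence intervals, red where called by the looser rule, and open diamonds for the estimate without M-Shp2-/- replicate 3. Ccr1 with SHP099 against WT, at -1.79, is the 1 red point, and the diamonds of Fpr1, Fpr2, C5ar1 and Ccrl2 lie to the left of the estimates from all libraries.

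Whether gene loss and inhibitor differ was tested directly, by M-Shp2-/- against SHP099. By the looser rule, 8 of 11450 genes were called (0.0699%). By the stricter rule 0 were called (0%), while 1437 genes had an unadjusted p under 0.05 and voom also called 0 by that rule. None of the 7 tested receptor genes was called by limma or by voom, and 2 had an unadjusted p under 0.05. The log2 fold change of Ccr1 was 1.15 (95% confidence interval 0.57 to 1.72, adjusted p 0.230), with every M-Shp2-/- library above every SHP099 library, as for 7.90% of all genes. A different effect of gene loss and inhibitor on Ccr1 was thus not called.

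This comparison turned on M-Shp2-/- replicate 3. With any other library left out, at most 2 genes were called. Without M-Shp2-/- replicate 3, the fit set 2 libraries against 3. In that fit, 2277 genes were called, 12.0% of all tested higher and 7.89% lower, and 159 by the stricter rule. Of the 7 receptor genes, 5 were then called, 1 higher and 4 lower. Ccr1 was higher in M-Shp2-/- macrophages by 1.29 on the log2 scale (adjusted p 0.0161).

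The 4 lower ones were Fpr1, Fpr2, C5ar1 and Ccrl2. The log2 fold change without that library was -2.03 for Fpr1 (adjusted p 0.0141), -1.85 for Fpr2 (adjusted p 0.00959), -1.27 for C5ar1 (adjusted p 0.0225) and -1.07 for Ccrl2 (adjusted p 0.00200). Ccrl2 was also called by the stricter rule. With all libraries the values were -1.21, -1.33, -0.75 and -0.67, with adjusted p values of 0.506, 0.353, 0.531 and 0.424. Replicates 1 and 2 of M-Shp2-/- were below every SHP099 library in all 4 genes, while replicate 3 lay among or above the SHP099 libraries in Fpr1, Fpr2, C5ar1 and Ccrl2. Cxcr4 and C3ar1 were not called with or without it, at 0.13 and 0.24 with all libraries and 0.25 and 0.33 without it.

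Markers moved in the same comparison without M-Shp2-/- replicate 3. Of 7 macrophage markers, 1 was called higher and 3 lower, 2 of them by the stricter rule, with log2 fold changes of -1.32 for Csf1r (adjusted p 0.00200) and -1.07 for Lyz2 (adjusted p 0.00242). Hp (-1.80, adjusted p 0.0165) and S100a8 (-0.63, adjusted p 0.0446) were called lower, and Mmp8 (1.04, adjusted p 0.0325) and Kit (1.21, adjusted p 0.0227) higher. The 4 tested fibroblast and mesothelium markers all had lower estimates, with a median of -1.11, and limma called 0 of them. The part of these shifts in the receptor calls was not tested.

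The lists described below also changed in that comparison without that library, where 12.0% of all genes were called higher and 7.89% lower. Of 4 other receptors, 2 were called higher and 1 lower, against 0 with all libraries, with Ccr7 at 1.88 (adjusted p 0.00438) and Ptafr at 0.48 (adjusted p 0.0174). The lower one was Cxcr6, at 0.390 and 0.294 FPKM in M-Shp2-/- replicates 1 and 2 and 2.11 to 3.15 FPKM in SHP099 libraries. Of 14 ligand genes, 2 were called higher, among them Anxa1 at 1.40 (adjusted p 0.00644), and 1 lower, Saa3 at -2.07 (adjusted p 0.00907), against 1 higher with all libraries. Of 36 signalling genes, 6 were called higher and 4 lower, against 0 with all libraries, with Plcb2 at 1.48 (adjusted p 0.00200).

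The receptor genes fell into patterns across the 9 libraries. As a description over 9 libraries in 3 groups, Pearson's r of log2(FPKM + 1) was 0.941 for Fpr1 with Fpr2, 0.914 for C5ar1 with Fpr1 and 0.891 for C5ar1 with Fpr2. For Ccrl2 it was 0.883 with Fpr2, 0.851 with C5ar1 and 0.803 with Fpr1. Those 4 genes were high in M-Shp2-/- replicate 3 and low in the other 2 M-Shp2-/- libraries. In WT and in SHP099 libraries too, replicate 3 was the highest of its group for each of the 4. What the libraries numbered 3 share was not tested. Ccr1 ran the other way, with r of -0.661 with Fpr2, -0.622 with Fpr1, -0.462 with Ccrl2 and -0.415 with C5ar1. C3ar1 and Ccrl2 had an r of 0.001.

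**Figure D3:**
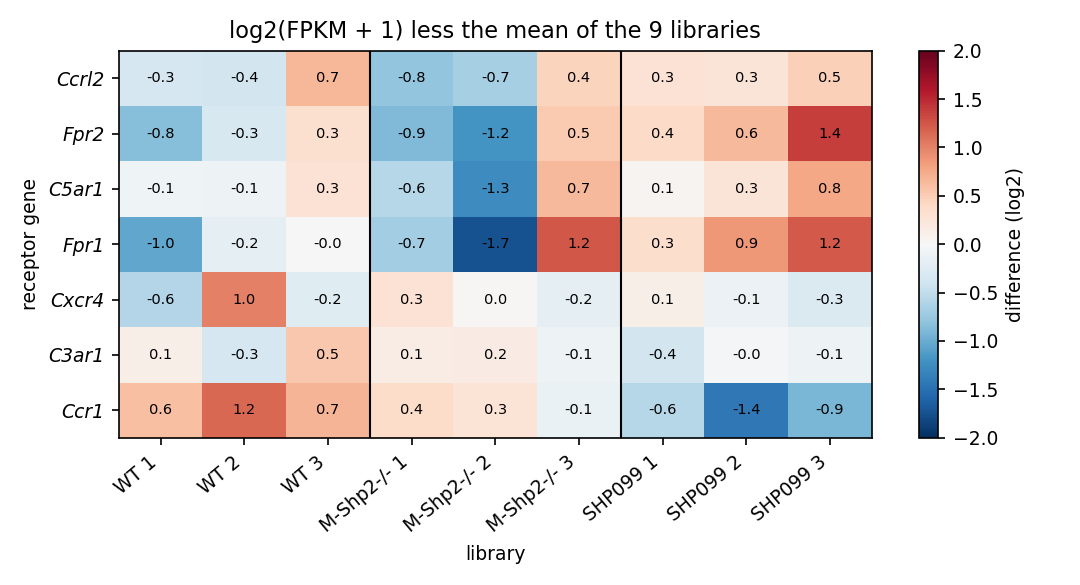
Difference of log2(FPKM + 1) from the mean of the 9 libraries for the 7 tested receptor genes (rows) in each library (columns), red above and blue below the mean. In M-Shp2-/- replicate 3, Fpr1, C5ar1, Fpr2 and Ccrl2 are red and in replicates 1 and 2 blue, and Ccr1 is blue in the 3 SHP099 libraries and red in the 3 WT libraries.

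Among all genes tested, those with the highest Pearson's r over the 9 libraries were Bcl3 (0.980) and Adora2b (0.976) for Ccr1, and Tnfsf9 (0.995) and Zhx2 (0.985) for Ccrl2. For Fpr1 they were Stard5 (0.989) and Smad4 (0.985), and for Fpr2 Lpcat2 (0.976) and Fam102b (0.974). C5ar1 was most like Rbbp8 (0.957) and Nr3c1 (0.954), C3ar1 most like Plbd1 (0.953) and Tcf7l2 (0.928), and Cxcr4 most like Dnajc14 (0.906) and Ppp1ca (0.886). Adora2b had 51.5, 60.5 and 42.0 FPKM in WT, 26.7, 26.4 and 20.8 FPKM in M-Shp2-/-, and 12.4, 8.30 and 11.2 FPKM in SHP099 libraries. Its groups were ordered as those of Ccr1, with no overlap. Tnfsf9 had 84.9, 91.7 and 279 FPKM in WT, 62.3, 65.9 and 195 FPKM in M-Shp2-/-, and 176, 169 and 225 FPKM in SHP099 libraries, with replicate 3 high in WT and in M-Shp2-/-, as for Ccrl2.

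Of 31 other chemokine and chemoattractant receptor genes, 4 passed the filter, Ccr7, Cxcr6, Cmklr1 and Ptafr, and 7 were at 0 in all libraries. With SHP099 against WT, 2 of the 4 were called lower and 0 higher, beside 2.41% of all genes called lower, and the median log2 fold change of the 4 was -0.40, beside 0.13 for all genes. Of the 4 estimates, 3 were lower and 1 higher, that of Cxcr6. Its level was 0.415, 1.52 and 2.29 FPKM in WT and 3.15, 2.11 and 2.33 FPKM in SHP099 libraries. Limma called 0 of the 4 in M-Shp2-/- against WT, with a median of -0.21, and of -0.12 without M-Shp2-/- replicate 3.

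Ccr7, the receptor for CCL19 and CCL21, had 5.04, 2.83 and 2.97 FPKM in WT, 5.80, 3.92 and 2.01 FPKM in M-Shp2-/-, and 0.714, 0.305 and 0.727 FPKM in SHP099 libraries. The SHP099 libraries lay below all others, and Ccr7 fell by 1.52 on the log2 scale against WT (adjusted p 0.0192).

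Ptafr, the receptor for platelet-activating factor, had 153, 124 and 168 FPKM in WT, 127, 148 and 114 FPKM in M-Shp2-/-, and 104, 98.7 and 91.5 FPKM in SHP099 libraries. SHP099 was lowest without overlap, and Ptafr fell by 0.58 on the log2 scale against WT (adjusted p 0.0390). Cmklr1, the signalling receptor for chemerin, had a mean of 132 FPKM over the 9 libraries and a log2 fold change of -0.22 with SHP099 (adjusted p 0.251). Like Ccr1, the 2 called genes depended on single libraries. Leaving out any of the 3 SHP099 libraries, or for Ptafr also WT replicate 1, took each above an adjusted p of 0.05, to at most 0.107 for Ccr7 and 0.164 for Ptafr. With no filter both calls were lost, at 0.0811 and 0.125.

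Of 20 ligand genes of the 9 receptors, 14 passed the filter. With SHP099 against WT, 5 were called lower and 0 higher, 1 of them by the stricter rule, where 2.41% of all genes were called lower and 0.166% by the stricter rule. The study had already reported Ccl9, Ccl7 and Ccl2 as lower with SHP099 in such macrophages, and the list was chosen with earlier results known. The count beside all genes is therefore a description and not a test. The median log2 fold change of the 14 was -0.83, beside 0.13 for all genes. In M-Shp2-/- against WT the median was -0.84 and 11 of 14 estimates were lower, but limma called 0 of them. The median was -1.30 without M-Shp2-/- replicate 3. Without M-Shp2-/- replicate 3, Ccl7 was called in that comparison, with a log2 fold change of -2.37 (adjusted p 0.0343).

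Ccl9, a CCR1 ligand, had 677 ± 185 FPKM in WT, 244 ± 40.4 in M-Shp2-/- and 60.5 ± 5.80 in SHP099 libraries (SD, n = 3). It fell by 3.43 on the log2 scale with SHP099 (adjusted p 0.00146), and its log2 fold change in M-Shp2-/- was -1.44 (adjusted p 0.192). The direct test between both groups gave 1.99, higher in M-Shp2-/- (adjusted p 0.0109), but it was 0.0818 with no filter and up to 0.115 without M-Shp2-/- replicate 1 or any SHP099 library. Without M-Shp2-/- replicate 3 the log2 fold change was 2.11 (adjusted p 0.00105), which passes the stricter rule. Ccl9 and Ccr1 were thus both lower with SHP099 than in WT. Among the other CCR1 ligand genes named above, Ccl6 was called lower, and Ccl3 and Ccl5 were not called. Ccl5 had 382, 310 and 552 FPKM in WT and 72.3, 101 and 310 FPKM in SHP099 libraries.

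The CCR2 ligand genes Ccl7 and Ccl2 fell by 2.95 (adjusted p 0.00759) and 2.39 (adjusted p 0.00846) on the log2 scale with SHP099, while Ccr2 itself stayed below the filter. Ccl6, another CCR1 ligand, fell by 1.48 (adjusted p 0.0316), and Anxa1, which encodes the FPR2 ligand annexin A1, fell by 1.18 (adjusted p 0.0207). With no filter on low FPKM, Ccl9 was called at an adjusted p of 0.0371 but not by the stricter rule, and the calls of Ccl7 (0.0599), Ccl2 (0.0629), Anxa1 (0.0916) and Ccl6 (0.129) were lost. Those of Anxa1 (0.0539) and Ccl6 (0.103) were also lost with all 9 libraries in 1 fit. With each library left out in turn, the adjusted p reached at most 0.0124 for Ccl9 (above 0.005 with any SHP099 library left out), 0.0386 for Ccl7 and 0.0439 for Ccl2. It reached 0.0855 for Anxa1, whose call was lost with any SHP099 library left out, and 0.116 for Ccl6, whose call was lost with any library left out other than WT replicate 3. Saa3, Ccl3 and Ccl4 were not called, with log2 fold changes of 0.58, -0.25 and -0.49.

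**Figure D4:**
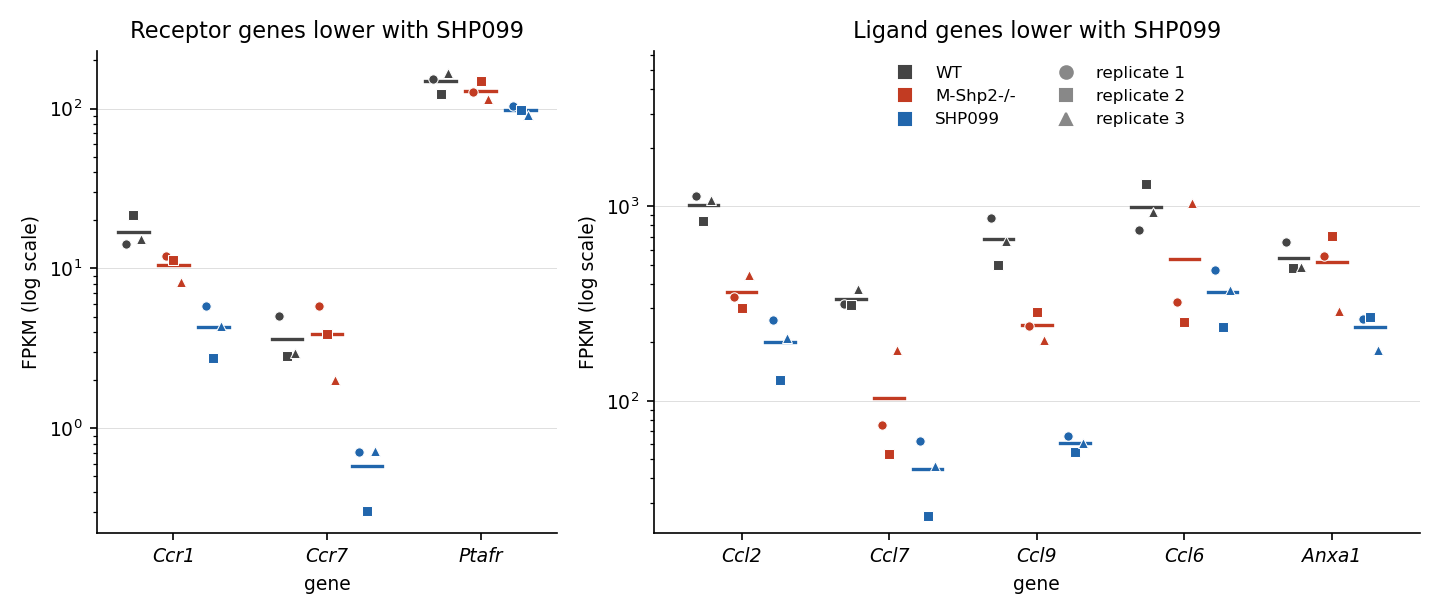
FPKM on log axes for Ccr1, Ccr7 and Ptafr (left) and for 5 ligand genes (right) in each of the 9 libraries, with a bar at each group's mean. With SHP099 all 8 genes lie lower than in WT, and Ccr7 in M-Shp2-/- overlaps WT.

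Of 40 genes for signalling and desensitisation downstream of these receptors, 36 passed the filter. With SHP099 against WT, 2 were called lower and 0 higher, where 2.41% of all genes were called lower, and the median of the 36 was 0.01 on the log2 scale, beside 0.13 for all genes. Without WT replicate 3, 3 were called higher and 2 lower, where 7.05% and 4.07% of all genes were. Plcb2, a phospholipase activated by G protein subunits, fell by 0.87 on the log2 scale (adjusted p 0.0388), and Rac2, a GTPase of cell movement, fell by 0.62 (adjusted p 0.0403). Both calls were lost with WT replicate 1, WT replicate 2 or any SHP099 library left out, with adjusted p values of up to 0.155 for Plcb2 and 0.175 for Rac2. They were also lost with no filter (0.122 and 0.133), and that of Plcb2 with all 9 libraries in 1 fit (0.140). Gnai2, Pik3r5 and Gnb1, the most abundant of the list, had log2 fold changes of 0.05, -0.20 and 0.02, of which those of Gnai2 and Gnb1 were -0.09 and -0.13 under median-of-ratios scaling. Limma called 0 of the 36 in M-Shp2-/- against WT, with a median of 0.05, and of 0.08 without M-Shp2-/- replicate 3. Under median-of-ratios scaling, the median of the 36 was -0.11 in M-Shp2-/- against WT and -0.12 in SHP099 against WT.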

How the data were processed

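The authors aligned reads with HISAT2 2.0.4, counted them with HTSeq 0.9.1 and deposited FPKM for 54059 genes in 9 libraries; the tool that made FPKM, the genome build and the strand counted are not stated. Symbols and positions came from GENCODE M21 (GRCm38), promoters from RefSeq. FPKM times mean transcript length fell on whole multiples within 0.05 for 96.2% to 96.7% of values up to 50 reads, which gave depth and reads, and floors cover counting error only. Groups came from the labels. log2(FPKM + 1) of 11450 genes, those averaging 1 FPKM or more, was fitted with limma 3.58.1 (lmFit, eBayes with trend) in R 4.3.3, on the 6 libraries of each comparison, with Benjamini-Hochberg adjustment over all genes tested. An exact permutation test of 3 against 3 cannot go below 0.1 and was not used. Summaries used Python 3.11.15, pandas 2.3.3, numpy 2.4.6 and matplotlib 3.10.9. The genes and lists were chosen with earlier results of these data known, and listed genes that are not reported were left out of the lists. Named genes are the 9 receptors, Ptpn11, and from each list every called gene (at most 8) and the 3 most abundant; likeness to a receptor names the 2 highest correlations. Alternatives were pseudocounts of 0.1 and 5, no filter, a mean FPKM of at least 5, median-of-ratios scaling, 1 fit of all 9 libraries, a replicate block, leaving out each library, and voom on recovered reads, which was added after the data were seen.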

Additional observations from a re-analysis of the deposited data

How the results depend on the processing

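Of 1005 values of 72 named-gene log2 fold changes under the alternatives, 894 kept their direction and their side of the threshold, 59 were weaker, 18 stronger and 34 reversed, and none of the reversed results was called in either setting. Pseudocounts of 0.1 and 5, a mean FPKM of at least 5 and voom kept all the named-gene results they tested.

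In M-Shp2-/- against WT, the receptor genes called were 0 under every alternative. All genes called were 10, 2 with a replicate block, and 1 to 8 with a library left out. The call of Ptpn11 was lost with a replicate block (adjusted p 0.157). By the stricter rule 1 gene was called, 0 with no filter or with a replicate block, 3 under median-of-ratios scaling, 2 with all 9 libraries in 1 fit, and 0 with any library left out.

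In SHP099 against WT, 1 receptor gene was called, 0 with no filter, 3 with a replicate block, and 0 to 4 with a library left out. With a replicate block, limma called Fpr1 and Fpr2 at an adjusted p of 0.0155 each and Ccr1 at 0.0404. The labels do not say that replicate numbers pair the libraries. By deviations from the group mean, 1 of 9 libraries was most like its own number in every other group. These deviations correlated at -0.431 to 0.492 in the 9 pairs of libraries with the same number. Whether the numbers pair the libraries was thus not settled. The block also took Ccl6 (0.0668), Ptafr (0.0609) and Rac2 (0.0779) above an adjusted p of 0.05. All genes called were 797, 74 with no filter, and 47 to 1273 with a library left out. The stricter rule called 19, 0 with no filter, 0 with a replicate block, 9 with voom, and 0 to 26 with a library left out.

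In M-Shp2-/- against SHP099, 0 receptor genes were called, and 0 to 5 with a library left out (0 to 1 by the stricter rule). All genes called were 8, 3 with no filter, 17 with a mean FPKM of at least 5, 3 with all 9 libraries in 1 fit, 0 with a replicate block (Ccl9 at an adjusted p of 0.146), 14 with voom, and 0 to 2277 with a library left out. The stricter rule called 0, 1 with all 9 libraries in 1 fit, and 0 to 159 with a library left out. No filter adds genes to the adjustment, and the standard errors also moved. That of Ccr1 in SHP099 against WT went from 0.246 to 0.275, and that of Ptpn11 in M-Shp2-/- against WT from 0.096 to 0.066. The part of each in the lost calls was not tested. For the other alternatives, with calls that went up as well as down when a library was left out, the cause was not tested either.

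Median-of-ratios scaling reversed the log2 fold change in M-Shp2-/- against WT of Fpr1 (-0.14), Ccr7 (-0.082), Gnai2 (-0.069) and Pik3r5 (-0.13), and in SHP099 against WT of Gnai2 (-0.094) and Gnb1 (-0.13), as it moved the median of all genes down.

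The other reversals came from leaving out 1 library. In M-Shp2-/- against WT, the log2 fold change then ran from -0.72 to 0.013 for Ccrl2, -0.35 to 0.45 for Cxcr4, -0.94 to 0.012 for C5ar1, -0.25 to 0.18 for C3ar1, -0.80 to 0.69 for Fpr1 and -0.76 to 0.11 for Fpr2. It ran from -0.23 to 0.36 for Ccr7, -0.41 to 0.22 for Anxa1, -0.065 to 0.61 for Plcb2, -0.075 to 0.16 for Pik3r5 and -0.060 to 0.0032 for Gnb1. In SHP099 against WT it ran from -0.48 to 0.31 for Cxcr4 and -0.018 to 0.066 for Gnb1. In M-Shp2-/- against SHP099 it ran from -0.088 to 0.086 for Cmklr1, -0.28 to 0.73 for Ccl6, -0.26 to 0.017 for Ccl3 and -0.027 to 0.11 for Gnai2.

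Depth did not limit the 7 tested receptor genes, which had at least 311 reads in each library, but it limits Cx3cr1, with 1 to 15 reads.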
